A study of Homo sapiens with 12 samples.

Results

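The 42 genes described here are the factors that sense oxygen and respond to its lack, known targets of these factors, and the enzymes of glycolysis, read by gene symbol from an RNA-seq table of 65975 gene identifiers. The list was set by gene name, with earlier results of these data known. It holds 7 regulators of the response, 13 targets outside glucose metabolism, 4 genes of glucose entry and of the PFKFB family, 15 glycolytic enzymes and 3 genes that decide the fate of pyruvate. The study asked which genes depend on KDM3A, a histone demethylase that removes methyl groups from lysine 9 of histone H3, in rhabdomyosarcoma (RMS), a childhood tumor of skeletal muscle type. RNA was profiled in 12 libraries, 3 for each of 4 groups. RD, a patient-derived line of fusion-negative RMS (FN-RMS), and Rh30, a line of fusion-positive RMS (FP-RMS) carrying a PAX3-FOXO1 fusion gene, were each transduced with lentivirus for a non-targeting Scramble shRNA or for KDM3A-sh2, an shRNA against KDM3A, and all 4 groups were selected in 1 µg/ml puromycin. RD cells were kept in DMEM and Rh30 cells in RPMI, both with 10% fetal bovine serum. No low-oxygen treatment is named for any group. Each subtype was represented by 1 line and KDM3A by 1 shRNA, so that line, medium and fusion status cannot be told apart, nor can loss of KDM3A and other effects of this shRNA. It is not stated if the 3 libraries per group were grown apart, and p-values here cover their spread alone, which may be technical. The submitted names of the 3 Rh30 Scramble libraries end in the same number, while those within each other group end in different numbers. What that number marks is not stated, and the titles call all libraries of a group replicates.

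Cells answer to low oxygen mainly through hypoxia-inducible factors (HIFs), pairs of an oxygen-labile alpha subunit and the stable beta subunit ARNT. In the presence of oxygen, the EGLN prolyl hydroxylases modify the alpha subunits, VHL then marks them for destruction, and this control acts on the protein and not on the mRNA. HIFs switch on genes for blood vessel growth, glucose uptake and glycolysis, mitochondrial turnover and collagen hydroxylation. KDM3A is itself a known HIF target, and its demethylase reaction needs oxygen and iron, as that of the EGLN enzymes does.

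KDM3A RNA was lower with KDM3A-sh2 in both lines. In RD it measured 35.8, 33.9 and 30.9 FPKM (fragments per kilobase of transcript, scaled to the mapped reads of the library) in the Scramble libraries and 12.0, 11.2 and 13.4 FPKM in the KDM3A-sh2 libraries. In Rh30 it measured 27.8, 29.2 and 32.0 FPKM in Scramble and 13.7, 13.2 and 15.4 FPKM in KDM3A-sh2. The log2 fold change was -1.39 ± 0.08 (SE; limma adjusted p = 5e-05) in RD and -1.02 ± 0.08 (adjusted p = 0.000348) in Rh30. Here and in what follows, n = 3 libraries a group, fold changes are differences of mean log2(FPKM + 1), which understate the change of genes with few FPKM, and a gene was called when limma's adjusted p over all genes tested was under 0.05. Of the 10 myogenic markers examined, 8 averaged at least 1 FPKM in every group, with sums of 2890 to 3391 FPKM in the RD libraries and 5416 to 5738 FPKM in the Rh30 libraries. Of these 8, 2 rose and 5 fell with KDM3A-sh2 in RD, and 2 rose and 3 fell in Rh30. The shares that fell, 62.5% in RD and 37.5% in Rh30, stand against 19.5 and 13.2% of all genes tested, and their part in the values below was not tested. The 6 endothelial markers summed to 2.90 to 4.83 FPKM and the 5 blood cell markers to 0.372 to 1.05 FPKM, with HBB at 0 in all 12 libraries. The 5 epithelial markers summed to 5.29 to 11.9 FPKM, led by CLDN4 in RD and EPCAM in Rh30. Relative depth was estimated from the spacing of low values over all 12 libraries. RD Scramble libraries spanned 1.049 to 1.199, RD KDM3A-sh2 0.860 to 1.00, Rh30 Scramble 1.00 to 1.02 and Rh30 KDM3A-sh2 0.941 to 0.995.

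Of the 42 genes, 39 reached the mean of 1 FPKM needed for testing within both lines. CA9, CA12 and ALDOC did not. In RD cells 11 of the 39 rose with KDM3A-sh2 (28.2%, against 21.6% of all genes tested) and 7 fell (17.9%, against 19.5%). In Rh30 cells 4 rose (10.3%, against 15.3% of all genes) and 16 fell (41.0%, against 13.2%). The shares in RD were thus near those of the whole transcriptome, while the share that fell in Rh30 was well above it. The median log2 fold change was 0.025 in RD, where all genes tested had 0.0067, and -0.18 in Rh30, where all genes had 0.031. In such bulk samples, fewer cells that express a gene and less of its RNA in each cell cannot be told apart. The Scramble and KDM3A-sh2 libraries of RD did not overlap for 14 members that were higher and 10 that were lower. Of the 17988 genes tested in RD, 5053 were higher and 4544 lower without overlap, 53.4% in both directions together. In Rh30, 6 members were higher and 21 lower without overlap. Of the 17803 genes tested there, 4559 were higher and 3600 lower without overlap, 45.8% in both directions together. An exact two-sided permutation test of a single gene, 3 libraries against 3, cannot give a p below 0.1, so that calls rest on the spread limma shares between genes. The members' share of all FPKM was 1.05 to 1.09% in RD Scramble and 1.03 to 1.05% in RD KDM3A-sh2, against 1.01 to 1.07% in Rh30 Scramble and 0.923 to 0.935% in Rh30 KDM3A-sh2. The count of 4 that rose in Rh30 became 2 without Scramble replicate 1 or 3 or without KDM3A-sh2 replicate 1 or 2.

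**Figure D1:**
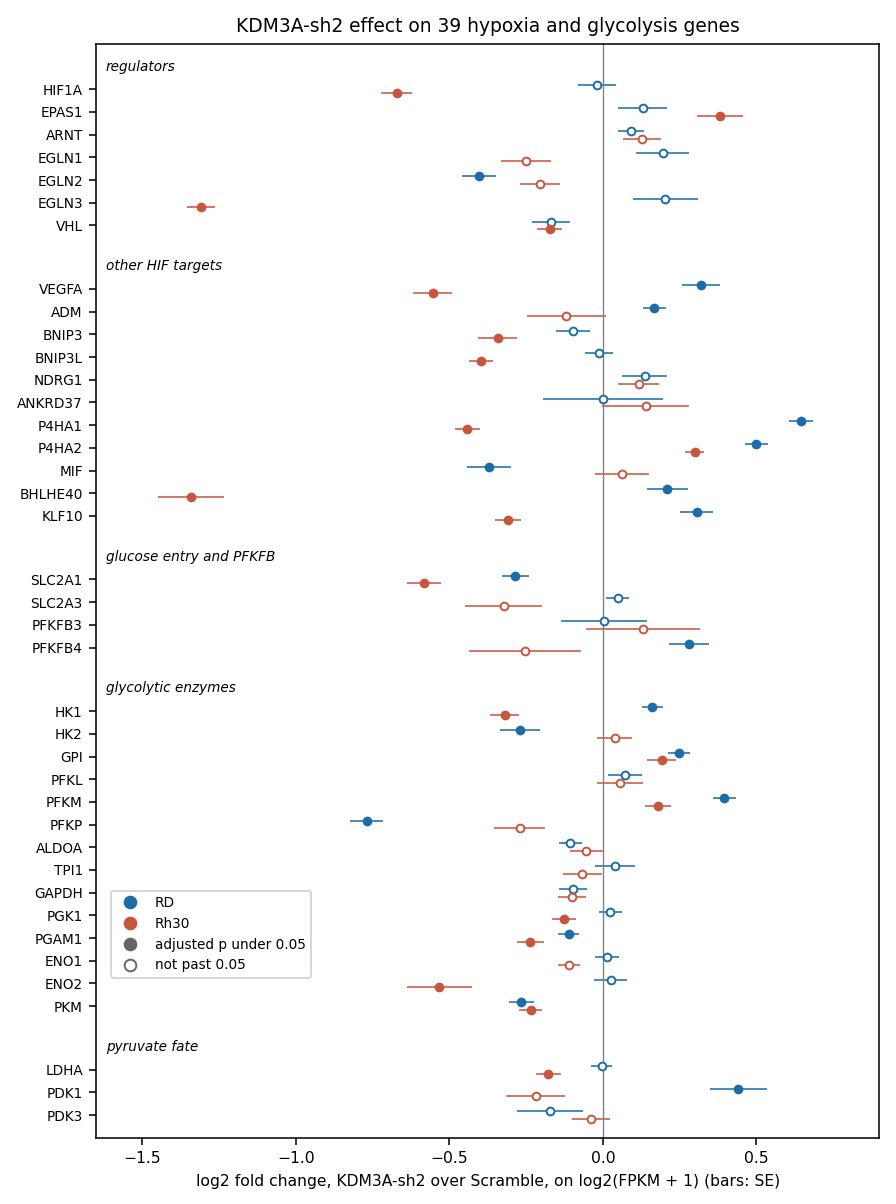
Log2 fold change of KDM3A-sh2 over Scramble, as a difference of mean log2(FPKM + 1), for the 39 tested members by role, with RD in blue, Rh30 in red, bars for the standard error, and filled points for an adjusted p under 0.05. EGLN3 (-1.31) and BHLHE40 (-1.34) lie farthest to the left in Rh30 and PFKP (-0.77) does so in RD, while P4HA1 lies at 0.65 in RD and at -0.44 in Rh30.

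Of the 7 regulators, EGLN2 alone was called in RD, and HIF1A, EPAS1, EGLN3 and VHL were called in Rh30. The shares that rose and fell were 0 and 14.3% in RD, against 21.6 and 19.5% of all genes tested. In Rh30 these shares were 14.3 and 42.9%, against 15.3 and 13.2%. HIF1A (chr14:61695513-61748259, + strand, GRCh38), the most studied oxygen-labile alpha subunit, measured 173, 185 and 185 FPKM in Rh30 Scramble and 111, 109 and 120.5 FPKM in Rh30 KDM3A-sh2. All 3 knockdown libraries lay below all 3 controls, and the log2 fold change was -0.67 ± 0.05 (SE; adjusted p = 0.000332). In RD, HIF1A measured 131, 141 and 121 FPKM in Scramble and 125, 128 and 135 FPKM in KDM3A-sh2. These groups overlapped, with a log2 fold change of -0.020 ± 0.062 (adjusted p = 0.823). EPAS1, which encodes the other widely expressed alpha subunit HIF-2α, went the other way in Rh30, from 18.7, 19.8 and 17.2 FPKM to 24.3, 22.9 and 26.4 FPKM (log2 fold change 0.38 ± 0.08, adjusted p = 0.0117). In RD it measured 20.8, 24.7 and 22.6 FPKM in Scramble and 23.6, 24.3 and 26.9 FPKM in KDM3A-sh2, a log2 fold change of 0.13 ± 0.08 (adjusted p = 0.238). As FPKM are scaled by length, the alpha subunits can be set side by side: EPAS1 made up 9.30 ± 0.72% (SD) of the summed FPKM of HIF1A and EPAS1 in Rh30 Scramble and 17.8 ± 0.32% in Rh30 KDM3A-sh2, against 14.8 ± 0.99% and 16.1 ± 0.36% in RD. ARNT, their shared partner, did not pass the test in RD (log2 fold change 0.09 ± 0.04, adjusted p = 0.134) or in Rh30 (0.13 ± 0.06, adjusted p = 0.17), although its KDM3A-sh2 libraries lay at or above the controls in both lines.

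Among the oxygen sensors, EGLN3 (chr14:33924231-34462774, - strand, GRCh38), which is also a HIF target, had the largest change in Rh30. It measured 62.0, 62.2 and 60.6 FPKM in Scramble and 23.3, 25.2 and 24.4 FPKM in KDM3A-sh2 there, with narrow groups far apart (log2 fold change -1.31 ± 0.04 SE, adjusted p = 4.99e-05). In RD the gene was low, at 2.16, 2.16 and 1.88 FPKM in Scramble and 2.59, 2.60 and 2.40 FPKM in KDM3A-sh2 (log2 fold change 0.20 ± 0.11, adjusted p = 0.173). These RD groups did not overlap. The rise passed in the linear model on unlogged FPKM (adjusted p = 0.0466) and in limma with the spread pooled over all 12 libraries (0.0156). This annotated span overlaps SPTSSA on the same strand, which ranged from 16.8 to 83.4 FPKM, and how the counting divided shared reads is not given in the sources used here. EGLN2, the most abundant of the EGLN genes, fell in RD from 104, 105 and 104 FPKM to 82.1, 81.7 and 72.2 FPKM (log2 fold change -0.40 ± 0.06, adjusted p = 0.0014). In Rh30 EGLN2 measured 97.5, 101 and 85.7 FPKM in Scramble and 84.9, 79.7 and 80.8 FPKM in KDM3A-sh2, all 3 below the controls, and missed the threshold (log2 fold change -0.20 ± 0.07, adjusted p = 0.0591). Without Rh30 Scramble replicate 3, the lowest control, it passed (adjusted p = 0.0114). EGLN1, the main oxygen sensor in most cells, was not called in RD (log2 fold change 0.19 ± 0.09, adjusted p = 0.114) or in Rh30 (-0.25 ± 0.08, adjusted p = 0.0597), where it passed without Scramble replicate 2 (adjusted p = 0.0328). VHL, the substrate-binding part of the ligase that marks hydroxylated HIF alpha subunits, was called in Rh30 (log2 fold change -0.17 ± 0.04, adjusted p = 0.0203), while its log2 fold change of -0.17 ± 0.06 in RD missed the threshold (adjusted p = 0.0685). The call in Rh30 was lost without Scramble replicate 1 or KDM3A-sh2 replicate 2 or 3 (adjusted p between 0.0616 and 0.0691), and that in RD was gained without Scramble replicate 2 (adjusted p = 0.0427).

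**Figure D2:**
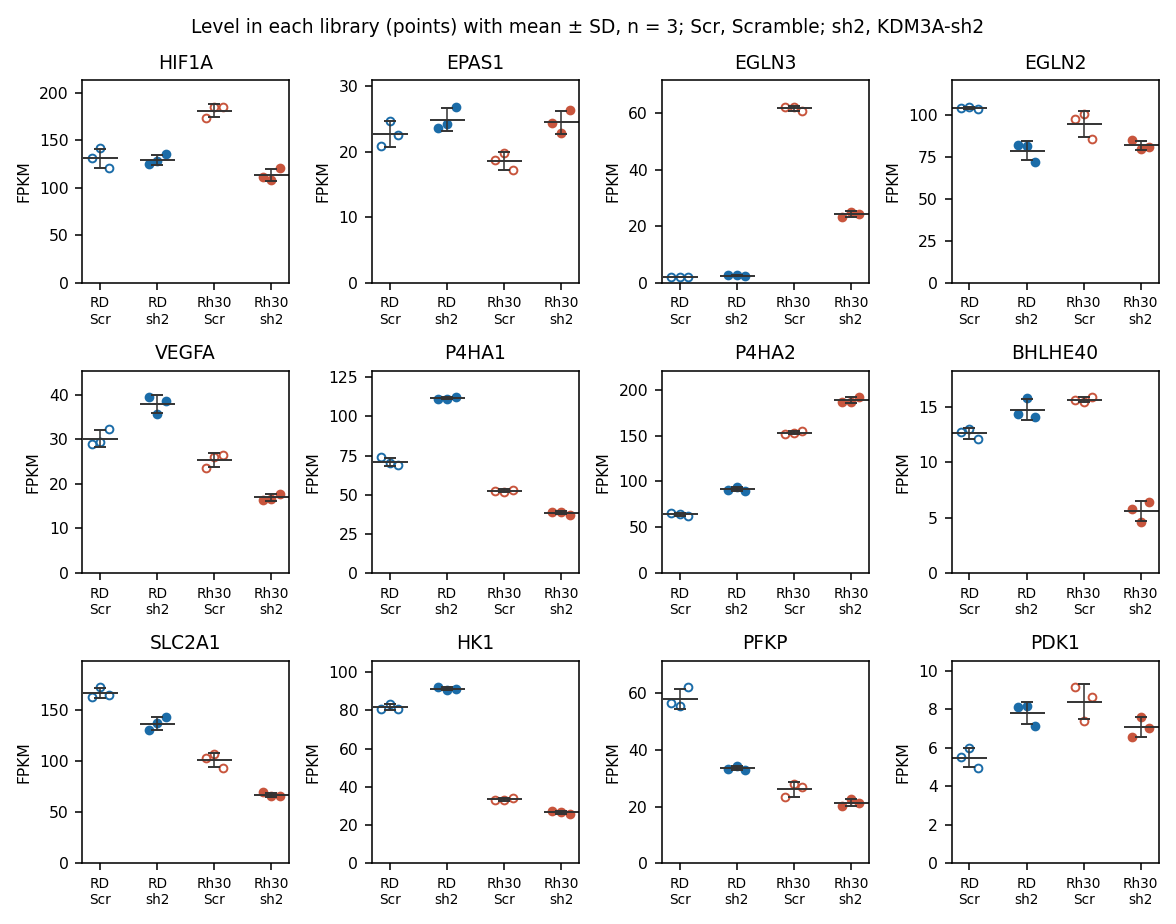
Level in FPKM in each library (points; open for Scramble, filled for KDM3A-sh2; RD in blue, Rh30 in red) with the mean and SD of 3 libraries, for 12 members. P4HA1 rises from 69.1 to 74.2 FPKM up to 111 to 112 FPKM in RD and falls from 51.7 to 53.4 FPKM down to 37.4 to 39.3 FPKM in Rh30, while P4HA2 rises in both lines.

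Of the 39 members tested in both lines, 5 rose in RD and fell in Rh30, namely P4HA1, VEGFA, BHLHE40, KLF10 and HK1, whereas 2.00% of all genes tested in both lines did so. By limma, 0 members fell in RD and rose in Rh30, against 1.58% of all genes. So low a share leaves a count of 0 among 39 members uninformative. The count was also 0 at an unadjusted p under 0.05. In the linear model on unlogged FPKM, read only for the regulators and the members called in a line, it was 0. P4HA2, GPI and PFKM rose in both lines (3 members, 7.69% of 39, against 6.51% of all genes), and SLC2A1, PGAM1 and PKM fell in both (3 members, against 6.84%). P4HA1 (chr10:73007217-73096974, - strand), a catalytic subunit of the enzyme that hydroxylates prolines of collagen, measured 74.2, 70.1 and 69.1 FPKM in RD Scramble and 111, 111 and 112 FPKM in RD KDM3A-sh2. The groups were far apart (log2 fold change 0.65 ± 0.04 SE, adjusted p = 5.01e-05). In Rh30 the same gene went from 52.7, 51.7 and 53.4 FPKM to 39.3, 38.7 and 37.4 FPKM (log2 fold change -0.44 ± 0.04, adjusted p = 0.000644). The difference between the effects, Rh30 minus RD, was -1.09 ± 0.05 (adjusted p = 3.37e-07 in the fit over all 12 libraries). VEGFA, the main growth factor of blood vessels, measured 28.9, 29.3 and 32.2 FPKM in RD Scramble and 39.5, 35.7 and 38.5 FPKM in RD KDM3A-sh2 (log2 fold change 0.32 ± 0.06, adjusted p = 0.0063). Rh30 libraries measured 23.6, 26.0 and 26.5 FPKM in Scramble and 16.5, 16.6 and 17.7 FPKM in KDM3A-sh2 (log2 fold change -0.55 ± 0.06, adjusted p = 0.0015).

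BHLHE40 (chr3:4979116-4985323, + strand), a transcriptional repressor of the circadian and hypoxia responses, had the largest drop of any tested member in Rh30, from 15.6, 15.4 and 15.9 FPKM to 5.80, 4.61 and 6.402 FPKM (log2 fold change -1.34 ± 0.11 SE, adjusted p = 0.000393). In RD it measured 12.8, 13.0 and 12.1 FPKM in Scramble and 14.4, 15.8 and 14.0 FPKM in KDM3A-sh2. These groups did not overlap, but the rise was small (log2 fold change 0.21 ± 0.07, adjusted p = 0.0425) and its call was lost when any 1 of the 6 libraries was left out (adjusted p between 0.0509 and 0.123). KLF10, a zinc finger repressor induced by TGF-beta, measured 19.7, 18.3 and 19.2 FPKM in RD Scramble and 23.8, 24.7 and 23.0 FPKM in RD KDM3A-sh2 (log2 fold change 0.31 ± 0.05, adjusted p = 0.00401). In Rh30 it went from 39.3, 38.97 and 40.8 FPKM to 32.5, 31.6 and 31.4 FPKM (log2 fold change -0.31 ± 0.04, adjusted p = 0.003). In RD, HK1, the hexokinase of most tissues, rose from 80.5, 83.4 and 80.8 FPKM to 92.1, 90.6 and 91.4 FPKM (log2 fold change 0.16 ± 0.03, adjusted p = 0.00827). It fell from 33.1, 33.0 and 34.4 FPKM to 27.5, 26.8 and 25.7 FPKM in Rh30 (log2 fold change -0.32 ± 0.05, adjusted p = 0.004). In each of these genes the groups of a line did not overlap, and the difference between the lines passed the test, at -0.87 ± 0.09 for VEGFA (adjusted p = 4.71e-05), -1.55 ± 0.13 for BHLHE40 (1.21e-05), -0.61 ± 0.06 for KLF10 (4e-05) and -0.48 ± 0.05 for HK1 (6.21e-05).

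HIFs bind a short DNA core, and the promoters of 4 members are printed to show where 1 form of that core, ACGTG, stands in genes that moved in opposite directions (P4HA1, BHLHE40), in a gene that did not pass the test in either line (ANKRD37) and in the regulator with the largest drop (EGLN3). Each run holds the 250 bases before a RefSeq start site on GRCh38.p14, 5′ to 3′ on the gene's strand, with ACGTG and its reverse complement CACGT in capitals.
P4HA1, chr10:73096867-73097116, - strand: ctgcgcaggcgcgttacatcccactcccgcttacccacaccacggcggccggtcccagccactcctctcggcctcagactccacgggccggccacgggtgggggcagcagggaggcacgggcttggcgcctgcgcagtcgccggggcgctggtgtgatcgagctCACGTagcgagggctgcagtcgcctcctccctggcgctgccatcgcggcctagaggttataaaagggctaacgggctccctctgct
BHLHE40, chr3:4979187-4979436, + strand: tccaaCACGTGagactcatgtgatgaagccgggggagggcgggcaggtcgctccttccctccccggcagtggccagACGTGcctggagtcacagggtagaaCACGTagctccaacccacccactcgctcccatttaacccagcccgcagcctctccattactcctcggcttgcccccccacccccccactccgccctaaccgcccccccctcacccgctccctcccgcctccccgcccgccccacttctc
ANKRD37, chr4:185396591-185396840, + strand: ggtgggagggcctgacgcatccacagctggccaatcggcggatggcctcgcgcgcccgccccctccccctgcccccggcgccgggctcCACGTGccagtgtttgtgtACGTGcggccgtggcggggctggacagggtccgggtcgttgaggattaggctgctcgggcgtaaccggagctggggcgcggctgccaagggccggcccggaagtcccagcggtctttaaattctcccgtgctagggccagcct
EGLN3, chr14:33951075-33951324, - strand: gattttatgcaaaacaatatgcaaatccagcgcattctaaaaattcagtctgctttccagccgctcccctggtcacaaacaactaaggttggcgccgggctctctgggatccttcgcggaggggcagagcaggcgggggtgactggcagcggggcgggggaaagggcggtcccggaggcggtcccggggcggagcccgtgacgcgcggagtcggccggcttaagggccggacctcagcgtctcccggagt
BHLHE40 held 3 sites, ANKRD37 held 2, P4HA1 held 1 and EGLN3 held none in this window, counting the palindrome CACGTG, in which both words overlap, as 1 site. Windows were found for 36 of the 42 members, and 21 of these (58.3%) held the core in at least 1 window, against 21.7% of the 27305 genes with a window. Of the 12 matched members that fell in Rh30, 6 held it, as did 11 of the 17 matched members that were not called there and 5 of the 9 that rose in RD. A gene with more start sites has more windows in which to hold the core, and members had 1 to 7. The shares of 58.3 and 21.7% do not adjust for this, and the members were drawn in part from known HIF targets. A match describes these letters only, and occupancy by a HIF was not measured.

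Among the other HIF targets, P4HA2, the paralog of P4HA1, rose in both lines. It measured 66.1, 64.1 and 62.7 FPKM in RD Scramble and 90.8, 93.6 and 89.5 FPKM in RD KDM3A-sh2 (log2 fold change 0.50 ± 0.04 SE, adjusted p = 0.000128). In Rh30 it measured 151.2, 153 and 155 FPKM in Scramble and 187, 186 and 192 FPKM in KDM3A-sh2 (log2 fold change 0.30 ± 0.03, adjusted p = 0.001). On the opposite strand P4HA2 overlaps PDLIM4, at 67.1 to 217 FPKM. BNIP3 and BNIP3L, receptors for the clearance of mitochondria, fell in Rh30 and were not called in RD. BNIP3L measured 61.3, 62.1 and 63.4 FPKM in Rh30 Scramble and 47.5, 47.6 and 46.0 FPKM in Rh30 KDM3A-sh2 (log2 fold change -0.40 ± 0.04, adjusted p = 0.000748), and its log2 fold change in RD was -0.014 ± 0.045 (adjusted p = 0.832). BNIP3 measured 19.6, 18.6 and 17.3 FPKM in Rh30 Scramble and 14.1, 14.9 and 14.1 FPKM in Rh30 KDM3A-sh2 (log2 fold change -0.34 ± 0.06, adjusted p = 0.00928). Its log2 fold change in RD was -0.10 ± 0.06 (adjusted p = 0.2). The value of BNIP3 is uncertain, because 42 pseudogene entries of it in the table sum to between 60.1 and 89.3% of its own FPKM.

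MIF, a secreted cytokine, fell in RD from 614, 662 and 589 FPKM to 433, 501 and 509.6 FPKM (log2 fold change -0.37 ± 0.07 SE, adjusted p = 0.00651). In Rh30, where the Scramble libraries ranged from 298 to 378 FPKM and the KDM3A-sh2 libraries from 349 to 375 FPKM, the groups overlapped (log2 fold change 0.06 ± 0.09, adjusted p = 0.634). ADM, the vasodilator peptide adrenomedullin, rose in RD from 78.3, 78.4 and 81.0 FPKM to 86.3, 90.8 and 90.3 FPKM (log2 fold change 0.17 ± 0.04, adjusted p = 0.0112), a call lost when the spread was pooled over all 12 libraries (adjusted p = 0.116). In Rh30 ADM stood at 2.15 to 3.22 FPKM over both groups (log2 fold change -0.12 ± 0.13, adjusted p = 0.533). NDRG1, a stress gene much used as a hypoxia marker, and ANKRD37 were not called in either line. NDRG1 measured 77.5 to 89.4 FPKM in RD Scramble and 87.2 to 100.2 FPKM in RD KDM3A-sh2, and 29.2 to 34.4 FPKM in Rh30 Scramble and 34.4 to 35.3 FPKM in Rh30 KDM3A-sh2. ANKRD37 ranged from 1.76 to 3.99 FPKM over all 12 libraries. The carbonic anhydrase CA9, a classical marker of hypoxic tumor cells, was near 0 throughout: RD Scramble libraries had 0.322, 0.367 and 0.326 FPKM, RD KDM3A-sh2 libraries 0, 0.0773 and 0 FPKM, and Rh30 libraries at most 0.223 FPKM. Its relative CA12 stayed between 0.00837 and 0.757 FPKM. At these levels neither was tested within a line.

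The main glucose transporter, SLC2A1 (GLUT1), fell in both lines. It measured 163, 172 and 165 FPKM in RD Scramble and 130.2, 137 and 143 FPKM in RD KDM3A-sh2 (log2 fold change -0.28 ± 0.04 SE, adjusted p = 0.00249). In Rh30 SLC2A1 measured 103, 107 and 93.7 FPKM in Scramble and 69.3, 66.1 and 66.1 FPKM in KDM3A-sh2 (log2 fold change -0.58 ± 0.06, adjusted p = 0.000802). The groups were separate in both lines, and the fall was deeper on the log2 scale in Rh30 (difference -0.30 ± 0.07, adjusted p = 0.012). On unlogged FPKM the difference did not pass the test (adjusted p = 0.668). SLC2A3 (GLUT3), a transporter of high affinity, was found almost only in RD, at 76.4 to 83.7 FPKM in its 6 libraries, and was not called there (log2 fold change 0.05 ± 0.04, adjusted p = 0.356). In Rh30 it was at 2.01, 2.32 and 2.35 FPKM in Scramble and 1.81, 1.497 and 1.43 FPKM in KDM3A-sh2 (log2 fold change -0.32 ± 0.13, adjusted p = 0.0993). The Rh30 values of SLC2A3 are uncertain, as its 3 pseudogene entries summed to between 9.07 and 945% of its own FPKM over the libraries. PFKFB3 and PFKFB4 make and break down the sugar phosphate that activates phosphofructokinase. PFKFB3 was not called in either line and overlapped between groups, ranging over 47.3 to 66.1 FPKM in RD and 15.5 to 24.6 FPKM in Rh30. PFKFB4 rose in RD from 9.79, 9.46 and 9.71 FPKM to 11.2, 12.5 and 12.1 FPKM (log2 fold change 0.28 ± 0.07, adjusted p = 0.0132; 0.134 with the spread pooled over all 12 libraries), and was at 2.85 to 4.89 FPKM in Rh30 (log2 fold change -0.25 ± 0.18, adjusted p = 0.34).

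Of the 14 glycolytic enzymes tested, 3 rose and 4 fell in RD, and 2 rose and 5 fell in Rh30, so that called enzymes lay in both directions. The shares that rose, 21.4% in RD and 14.3% in Rh30, were near the 21.6 and 15.3% of all genes, while those that fell, 28.6 and 35.7%, stand against 19.5 and 13.2%. The most sharply changed was PFKP (chr10:3066333-3137712, + strand), the platelet-type phosphofructokinase, at the committed step of glycolysis. In RD it measured 56.6, 55.5 and 62.1 FPKM in Scramble and 33.4, 34.4 and 33.1 FPKM in KDM3A-sh2 (log2 fold change -0.77 ± 0.05 SE, adjusted p = 8.84e-05). Rh30 libraries had 23.2, 28.1 and 26.8 FPKM in Scramble and 20.2, 22.8 and 21.2 FPKM in KDM3A-sh2, again all below the controls, and missed the threshold (log2 fold change -0.27 ± 0.08, adjusted p = 0.051). It passed without Rh30 Scramble replicate 1 (adjusted p = 0.0244). The muscle-type enzyme PFKM went the other way in RD, from 84.0, 83.4 and 81.5 FPKM to 112, 111 and 106 FPKM (log2 fold change 0.40 ± 0.04, adjusted p = 0.000275). In Rh30 PFKM went from 69.4, 72.2 and 69.3 FPKM to 80.7, 81.9 and 76.5 FPKM (log2 fold change 0.18 ± 0.04, adjusted p = 0.0216). That call was lost without Rh30 Scramble replicate 1 or 3 or KDM3A-sh2 replicate 1 or 2 (adjusted p between 0.0518 and 0.0759). The liver-type enzyme PFKL was not called, with log2 fold changes of 0.07 ± 0.06 in RD and 0.06 ± 0.07 in Rh30.

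HK2, the inducible hexokinase of many tumors, fell in RD from 16.4, 15.3 and 14.2 FPKM to 12.6, 12.7 and 12.2 FPKM (log2 fold change -0.27 ± 0.07 SE, adjusted p = 0.0166; 0.0515 without RD Scramble replicate 2). In Rh30 it measured 31.2 to 34.8 FPKM in Scramble and 32.5 to 34.6 FPKM in KDM3A-sh2, with full overlap (log2 fold change 0.04 ± 0.06, adjusted p = 0.648). GPI, which turns glucose 6-phosphate into fructose 6-phosphate, rose in RD from 267, 277 and 286 FPKM to 325, 333 and 327 FPKM (log2 fold change 0.25 ± 0.03, adjusted p = 0.00156). In Rh30 GPI rose from 183, 195 and 175 FPKM to 213, 214 and 205 FPKM (log2 fold change 0.19 ± 0.05, adjusted p = 0.0262), a call lost without Scramble replicate 1 or 3 or KDM3A-sh2 replicate 1 or 2 (adjusted p between 0.0544 and 0.0839). PKM, the pyruvate kinase at the last step, fell in both lines, in RD from 1977, 2117 and 2138 FPKM to 1775, 1733 and 1673 FPKM (log2 fold change -0.27 ± 0.04, adjusted p = 0.00237). In Rh30 PKM went from 2864, 3109 and 2880.0 FPKM to 2478, 2524 and 2512 FPKM (log2 fold change -0.24 ± 0.04, adjusted p = 0.00565). The table gives genes and not isoforms, so the PKM1 and PKM2 splice forms cannot be told apart.

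PGAM1, a phosphoglycerate mutase, fell in Rh30 from 110.0, 111 and 112 FPKM to 95.4, 97.6 and 88.9 FPKM (log2 fold change -0.24 ± 0.04 SE, adjusted p = 0.0089). In RD it went from 89.6, 86.8 and 87.2 FPKM to 82.0, 79.3 and 82.4 FPKM (log2 fold change -0.11 ± 0.04, adjusted p = 0.0409), a call lost when any 1 of the 6 libraries was left out (adjusted p between 0.0635 and 0.124). ENO2, the neuronal enolase, fell in Rh30 from 5.71, 4.77 and 5.46 FPKM to 3.38, 3.69 and 3.01 FPKM (log2 fold change -0.53 ± 0.11, adjusted p = 0.0117), and was at 25.8 to 28.2 FPKM in all RD libraries (log2 fold change 0.03 ± 0.05, adjusted p = 0.736). On the same strand ENO2 overlaps LRRC23, at 2.76 to 9.08 FPKM over the libraries, so its low values in Rh30 are uncertain. PGK1, the first enzyme of the pathway to yield ATP, measured 384 to 406 FPKM in Rh30 Scramble and 349 to 373 FPKM in Rh30 KDM3A-sh2 (log2 fold change -0.13 ± 0.04, adjusted p = 0.0471). That call was lost when any 1 of the 6 libraries was left out (adjusted p between 0.0514 and 0.127), and in RD the log2 fold change was 0.02 ± 0.04 (adjusted p = 0.651). The 4 most abundant enzymes besides PKM, namely GAPDH, ENO1, ALDOA and TPI1, were not called in either line, with log2 fold changes between -0.11 and 0.04 in RD and between -0.11 and -0.05 in Rh30. Pseudogene entries summed to 72.4 to 91.1% of the FPKM of TPI1 and to 23.7 to 26.1% of that of GAPDH, so that their levels are uncertain.

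Paralogs thus took different shares of their families, given here as descriptions with no test. PFKP made up 32.3 ± 1.21% (SD) of the summed FPKM of PFKL, PFKM and PFKP in RD Scramble and 18.3 ± 0.29% in RD KDM3A-sh2, while PFKM went from 46.2 ± 1.77% to 59.6 ± 0.61%. The sum ranged from 177 to 185 FPKM in Scramble and from 178 to 187 FPKM in KDM3A-sh2. In Rh30 PFKP had 19.8 ± 1.75% in Scramble and 15.6 ± 0.54% in KDM3A-sh2, and PFKM had 53.5 ± 0.54% and 58.0 ± 1.67%. Of the hexokinases, HK2 held 15.8 ± 1.00% in RD Scramble and 12.0 ± 0.23% in RD KDM3A-sh2, against 49.4 ± 1.63% and 55.8 ± 1.43% in Rh30. P4HA1 held 52.5 ± 0.33% of the summed P4HA1 and P4HA2 in RD Scramble and 55.0 ± 0.67% in RD KDM3A-sh2, and in Rh30 its share went from 25.6 ± 0.31% to 16.9 ± 0.59%. The HK2 and P4HA1 shares therefore differed from Scramble in opposite directions in the lines, with no overlap between the groups of either line. EGLN3 held 35.5 ± 1.10% of the summed EGLN genes in Rh30 Scramble, 20.1 ± 0.97% in Rh30 KDM3A-sh2, and 1.69 ± 0.10% and 2.54 ± 0.03% in RD.

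**Figure D3:**
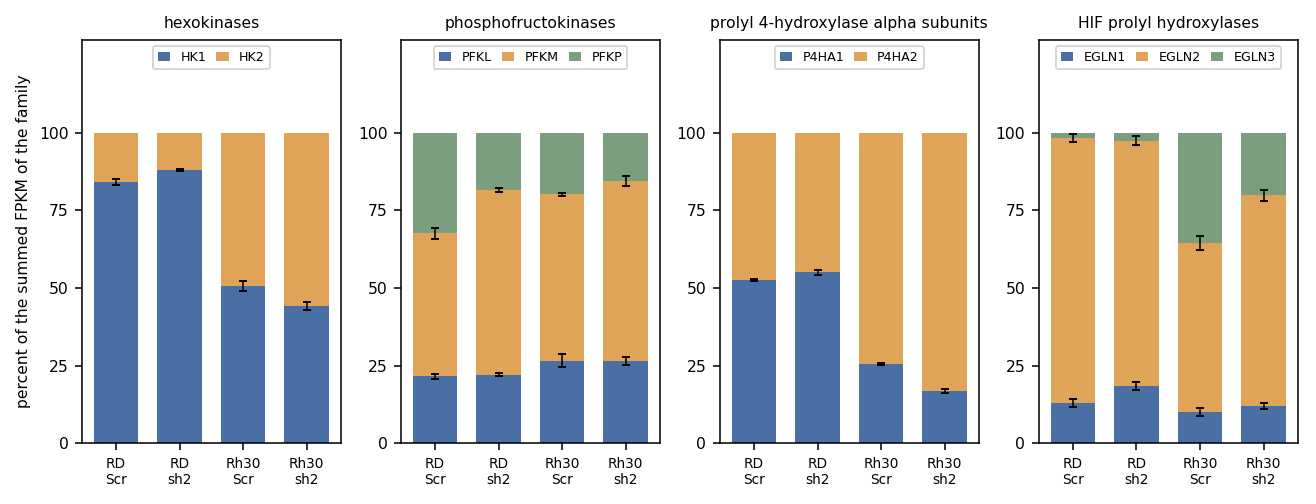
Mean share, in percent, of each paralog in the summed FPKM of its family in the 4 groups of 3 libraries (bars), with the SD of a paralog's share at its upper edge. PFKP narrows from 32.3 to 18.3% in RD, P4HA1 narrows from 25.6 to 16.9% in Rh30, and EGLN3 is a visible part of its family only in Rh30.

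Of the 3 genes at the fate of pyruvate, LDHA, which turns pyruvate into lactate, measured 827, 865 and 870.3 FPKM in Rh30 Scramble and 767, 779 and 719 FPKM in Rh30 KDM3A-sh2 (log2 fold change -0.18 ± 0.04 SE, adjusted p = 0.0196). The call was lost without Scramble replicate 2 or 3 or KDM3A-sh2 replicate 1 (adjusted p between 0.0524 and 0.057). In RD LDHA stood at 865 to 932 FPKM in all 6 libraries (log2 fold change -0.0038 ± 0.035, adjusted p = 0.942). Its 6 pseudogene entries summed to 28.3 to 35.7% of its own FPKM. PDK1, a kinase that shuts the pyruvate dehydrogenase complex and so keeps pyruvate out of the mitochondrial cycle, rose in RD from 5.53, 5.97 and 4.96 FPKM to 8.12, 8.18 and 7.12 FPKM (log2 fold change 0.44 ± 0.09, adjusted p = 0.00923). In Rh30 it measured 9.14, 7.41 and 8.65 FPKM in Scramble and 6.55, 7.60 and 7.03 FPKM in KDM3A-sh2, with overlap (log2 fold change -0.22 ± 0.10, adjusted p = 0.135). PDK3, a related kinase, was not called in either line and was at 3.28 to 4.43 FPKM in RD and 7.97 to 8.61 FPKM in Rh30.

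A fit over all 12 libraries asked whether the effect of KDM3A-sh2 itself differed between the lines. Of 39 members, 17 had a more negative effect in Rh30 (43.6%, against 13.4% of all genes tested) and 3 a more positive effect (7.69%, against 14.4%). The median difference was -0.15 on the log2 scale for the members and 0.024 for all genes. The 17 were HIF1A, EGLN1 and EGLN3 among the regulators, VEGFA, BNIP3, BNIP3L, P4HA1, P4HA2, BHLHE40 and KLF10 among the targets, the transporters SLC2A1 and SLC2A3, the enzymes HK1, PFKM and ENO2, and LDHA and PDK1. The 3 were MIF, HK2 and PFKP, all of which fell in RD and were not called in Rh30. KDM3A itself was reduced less in Rh30 (difference 0.37 ± 0.12 SE, adjusted p = 0.0388). That call on KDM3A was lost without Rh30 Scramble replicate 1 or 2, Rh30 KDM3A-sh2 replicate 1 or 3, RD Scramble replicate 1 or 2, or RD KDM3A-sh2 replicate 1 or 2 (adjusted p between 0.0564 and 0.0868). Among the 20 members, the call on BNIP3 was lost when any library other than Rh30 Scramble replicate 3, Rh30 KDM3A-sh2 replicate 2 or RD KDM3A-sh2 replicate 3 was left out (adjusted p between 0.065 and 0.0984). That on LDHA was lost without Rh30 Scramble replicate 2 or 3, Rh30 KDM3A-sh2 replicate 3, any RD Scramble replicate or RD KDM3A-sh2 replicate 1 (between 0.0557 and 0.0711), and that on MIF without Rh30 KDM3A-sh2 replicate 1, RD Scramble replicate 2 or RD KDM3A-sh2 replicate 1 (between 0.0543 and 0.0596). On unlogged FPKM the direction of P4HA2 turned, its rise being larger in Rh30 (adjusted p = 0.0392), and the calls on BNIP3 (0.255), SLC2A1 (0.668), SLC2A3 (0.172), ENO2 (0.0866) and HK2 (0.0823) were lost. The call on HK2 was also lost when libraries were scaled to equal sums (0.0625), and that on SLC2A3 with a replicate block (0.0631).

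The lines also differed before knockdown. With Scramble alone, 40 members could be tested, of which 14 were higher in Rh30 (35.0%, against 35.0% of all genes tested) and 21 were lower (52.5%, against 39.6%). The share that was higher thus equalled that of the transcriptome. SLC2A3 had the largest gap, at 79.2, 76.4 and 79.9 FPKM in RD and 2.01, 2.32 and 2.35 FPKM in Rh30 (log2 difference, Rh30 minus RD, -4.63 ± 0.07 SE, adjusted p = 1.17e-08). ADM was almost as far apart, at 78.3, 78.4 and 81.0 FPKM in RD and 3.22, 2.47 and 2.44 FPKM in Rh30 (-4.44 ± 0.09, adjusted p = 3.92e-08). EGLN3 had the widest gap in the other direction (4.35 ± 0.06, adjusted p = 1.3e-08). Lower in Rh30 were also ENO2 (-2.13 ± 0.08), PFKFB3 (-1.52 ± 0.17), NDRG1 (-1.34 ± 0.08), HK1 (-1.26 ± 0.04), PFKP (-1.13 ± 0.08) and SLC2A1 (-0.72 ± 0.06). Higher in Rh30 were P4HA2 (1.24 ± 0.04), HK2 (1.05 ± 0.07), KLF10 (1.02 ± 0.05), PDK3 (0.89 ± 0.09), ENO1 (0.68 ± 0.04) and HIF1A (0.47 ± 0.06). The 5 members not called were EGLN1, EGLN2, PFKL, ALDOC and LDHA, of which ALDOC, the aldolase of brain, was at 0.793 to 1.23 FPKM.

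**Figure D4:**
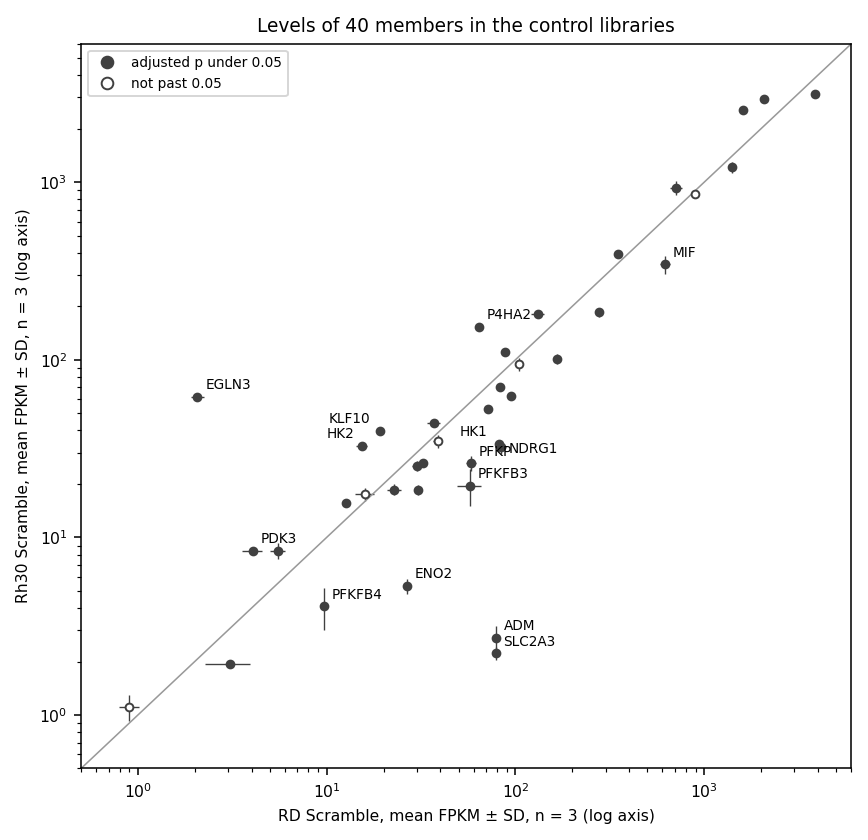
Mean FPKM in Rh30 Scramble (vertical, log axis) against RD Scramble (horizontal, log axis) for 40 members, with the SD of 3 libraries as bars, filled points for an adjusted p under 0.05 and a line of equal levels. Most members lie near the line, EGLN3 lies far above it, and SLC2A3, ADM and ENO2 lie far below it.

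Other genes of the same pathways were read from longer lists of known members. Of 39 further hypoxia genes tested in RD, 14 rose and 6 fell, and of 38 in Rh30, 9 rose and 10 fell, shares of 35.9 and 15.4% in RD and of 23.7 and 26.3% in Rh30 that are read against the same 21.6, 19.5, 15.3 and 13.2% of all genes. Where the mean over a line's libraries reached 10 FPKM, those that rose in RD included LOX (0.94 ± 0.04 SE on the log2 scale), which cross-links collagen, KDELR3 (0.87 ± 0.04) and MXI1 (0.66 ± 0.06), an antagonist of MYC. Those that fell most in RD were DDIT4 (-0.40 ± 0.06), an inhibitor of mTOR signaling, ZNF395 (-0.33 ± 0.07), FUT11 (-0.33 ± 0.07) and ANKZF1 (-0.30 ± 0.05). In Rh30, at the same limit, STC2 (-0.72 ± 0.08), a secreted glycoprotein, DDIT4 (-0.70 ± 0.05), CITED2 (-0.60 ± 0.08), which competes with HIF alpha subunits for the coactivator p300, and IER3 (-0.58 ± 0.06) fell most. Those that rose most in Rh30 at this limit were HMOX1 (0.68 ± 0.05), which breaks down heme, NOL3 (0.49 ± 0.08), PGM1 (0.35 ± 0.04) and PLOD1 (0.25 ± 0.06). The count of 14 in RD became 9 without Scramble replicate 3, and that of 9 in Rh30 became 5 without KDM3A-sh2 replicate 2. DDIT4 fell in both lines, from 29.6 to 30.2 FPKM down to 20.7 to 24.3 FPKM in RD, while Rh30 libraries went from 48.1 to 52.8 FPKM down to 29.7 to 32.0 FPKM.

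Of 28 further genes of glucose and pyruvate metabolism tested in RD, 11 rose and 4 fell, and of 25 in Rh30, 8 rose and 5 fell. These are shares of 39.3 and 14.3% in RD, against 21.6 and 19.5% of all genes, and of 32 and 20% in Rh30, against 15.3 and 13.2%. The genes named next have larger changes where the line's mean reached 10 FPKM. SLC16A3 (MCT4), the exporter of lactate, rose most in RD (0.80 ± 0.06 SE on the log2 scale, adjusted p = 0.000132), from 40.2 to 45.2 FPKM up to 71.3 to 78.8 FPKM. It also rose in Rh30 (0.55 ± 0.12, adjusted p = 0.0167), where it stood at only 2.51 to 3.27 FPKM in Scramble. PDK2 (0.58 ± 0.07), MPC2 (0.55 ± 0.05), a subunit of the mitochondrial pyruvate carrier, and BPGM (0.33 ± 0.06) rose in RD as well. ENO3, the enolase of skeletal muscle (-0.47 ± 0.06), GPD2 (-0.34 ± 0.06), LDHB (-0.21 ± 0.03) and DLD (-0.17 ± 0.05) fell there. In Rh30, PDP1, the phosphatase that reactivates pyruvate dehydrogenase (-0.56 ± 0.12), TIGAR (-0.39 ± 0.05), PCK2 (-0.24 ± 0.06) and RPE (-0.23 ± 0.06) fell. Pyruvate carboxylase PC (0.58 ± 0.14), PGLS (0.28 ± 0.05), an enzyme of the pentose phosphate pathway, and MPC1 (0.23 ± 0.07) were among those that rose in Rh30. In Rh30 the count of 8 became 3 without KDM3A-sh2 replicate 1 and 5 without Scramble replicate 1, Scramble replicate 2 or KDM3A-sh2 replicate 2. The count of 5 became 1 without KDM3A-sh2 replicate 1 or 3 and 2 without Scramble replicate 2 or 3.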

How the data were processed

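The deposited table holds FPKM per gene and library for 12 libraries. Per the study's methods and the submitters' processing notes, the authors made directional mRNA libraries, aligned the single-end reads with GSNAP to GRCh38, used SAMtools, and estimated FPKM with Cufflinks. The annotation release and the strand setting are not given in the sources used here, and labels and methods give different read lengths. FPKM carry no read counts, so depth is known only relative to other libraries, and reads shared by pseudogenes or overlapping genes cannot be reassigned. Of 66095 entries, 120 repeats of an identifier were left out, and a placeholder of 999999999 in 17 genes, none of them a member, was treated as missing. MIF and GPI were each also listed under an extra identifier at 0, and the identifier in GENCODE 29, which holds 86.3% of all identifiers, was kept. Gene positions are from GENCODE 29, promoter sequences from RefSeq.

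Members and lists were chosen with earlier results of these data known. All 42 members could be named with their FPKM. Fold changes are given for members past the threshold in a comparison, for the 7 regulators, for KDM3A and for members whose call differed between the lines. Those of PFKL, which was called in no comparison, are given in addition. Of the longer lists, up to 4 called genes each way in each line were named by the largest change at a mean of at least 10 FPKM, and some genes that the rule named are not reported here. Genes whose mean over a comparison's libraries reached 1 FPKM were tested on log2(FPKM + 1) with limma 3.58.1 in R 4.3.3 (empirical Bayes with a mean-variance trend, two-sided), Benjamini-Hochberg adjustment over all genes tested and a threshold of 0.05. The study's own test was made per gene on FPKM. Scramble and KDM3A-sh2 were compared within RD and within Rh30, the difference of these effects was fitted over all 12 libraries, and Rh30 Scramble was compared with RD Scramble. The procedure was also run on simulated data with independent noise for each library, and the outcome is not reported here. Alternatives were a pseudocount of 0.1, other filters and scalings, unlogged FPKM, a replicate block, pooled spread and leaving out each library. Figures and sequence counts were made with Python 3.11.15, pandas 2.3.3 and matplotlib 3.10.9.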

Additional observations from a re-analysis of the deposited data

Results flagged for a closer look

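For 20 of the 39 members tested, a test of the difference itself found unequal effects of the knockdown in the lines (limma, adjusted p under 0.05 over all genes). Of all genes tested, 27.82% were called for this difference. Values are Rh30 minus RD on the log2(FPKM + 1) scale with their SE. Among the regulators they were -1.51 ± 0.08 for EGLN3, -0.65 ± 0.08 for HIF1A and -0.44 ± 0.12 for EGLN1. Among the other HIF targets they were -1.55 ± 0.13 for BHLHE40, -1.09 ± 0.05 for P4HA1, -0.87 ± 0.09 for VEGFA, -0.61 ± 0.06 for KLF10, -0.38 ± 0.06 for BNIP3L, -0.24 ± 0.08 for BNIP3 and -0.20 ± 0.04 for P4HA2, and 0.43 ± 0.12 for MIF. The transporters had -0.37 ± 0.09 (SLC2A3) and -0.30 ± 0.07 (SLC2A1). Among the enzymes they were -0.56 ± 0.11 for ENO2, -0.48 ± 0.05 for HK1 and -0.22 ± 0.05 for PFKM, and 0.50 ± 0.10 for PFKP and 0.31 ± 0.08 for HK2. PDK1 had -0.66 ± 0.13 and LDHA -0.17 ± 0.05. For SLC2A3, at 1.43 to 2.35 FPKM in Rh30, and for EGLN3, at 1.88 to 2.60 FPKM in RD, the added 1 FPKM shrinks the effect in the line where the gene is low.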

How the results depend on the processing

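Of the members' calls, 13 of 18 in RD, 15 of 20 in Rh30, 12 of 20 for the difference between lines and 31 of 35 at baseline held under every alternative run. In RD the exceptions were BHLHE40, PGAM1, HK2, ADM and PFKFB4, and in Rh30 they were GPI, LDHA, PFKM, PGK1 and VHL. For the difference they were BNIP3, ENO2, HK2, LDHA, MIF, SLC2A1 and SLC2A3, with P4HA2, whose value of -0.20 turned on unlogged FPKM (adjusted p = 0.0392), since its rise in FPKM was larger in Rh30, where its level is higher. At baseline they were ANKRD37, EPAS1, PGK1 and VHL. Other members, not called in the main fit, passed under at least 1 alternative: 2 in RD, 3 in Rh30, 3 for the difference and 2 at baseline. In Rh30, PFKP passed with at least 10 FPKM in a library (adjusted p = 0.0357) and with pooled spread (0.0149). It also passed when rescaled to the same sum (0.0351) or by the median ratio (0.042). EGLN2 passed in Rh30 under these same settings (0.0441, 0.0303, 0.0378 and 0.0394). With no filter on low values, the percent of all tested genes called became 19.3 (from 41.08) in RD, 12.41 (from 28.46) in Rh30, 13.57 (from 27.82) for the difference and 48.15 (from 74.54) at baseline, over more genes tested. Among the longer lists, the glucose genes that rose in RD numbered 7 (from 11) with at least 10 FPKM in a library. The hypoxia genes that rose numbered 8 (from 14) in RD and 4 (from 9) in Rh30 on unlogged FPKM. The glucose genes that fell in Rh30 numbered 3 (from 5) with no filter and 1 on unlogged FPKM.

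Leaving out each library in turn gave 9 to 11 hypoxia genes that rose in RD and 5 to 6 in Rh30, 3 to 7 glucose genes that rose and 1 to 5 that fell in Rh30, 2 to 4 members that rose in Rh30, and 18.1 to 22.85% of all genes called in Rh30. Apart from P4HA2, the values that changed sign belonged to results that were not called. Rescaled to the same sum, log2 fold changes in RD were 0.014 for HIF1A, 0.020 for BNIP3L and 0.030 for LDHA, and the difference for ARNT was -0.022. With a library left out, RD values ran from -0.075 to 0.034 for HIF1A, from -0.055 to 0.014 for BNIP3L, from -0.00065 to 0.061 for ENO2 and from -0.036 to 0.018 for LDHA, the Rh30 value of MIF from -0.038 to 0.13, and the difference from -0.018 to 0.075 for ARNT and from -0.060 to 0.044 for VHL.

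Libraries that share a replicate number did not deviate together (correlations across genes between -0.074 and 0.056), so the numbers are not taken as pairs. With the replicate number as a block, calls were lost for BHLHE40 (adjusted p = 0.0618) and PGAM1 (0.0832) in RD, for VHL (0.0646), PFKM (0.0526), PGK1 (0.108) and LDHA (0.0543) in Rh30, and for the difference in BNIP3 (0.0956), SLC2A3 (0.0631), LDHA (0.0788) and KDM3A (0.0641). PFKP was gained in Rh30 (0.0406). The block also left 5 glucose genes that rose (from 8) and 1 that fell (from 5) in Rh30. No other call changed among the regulators, the members called in a comparison and those whose call differed between the lines. The remaining members were not followed singly under the block. Except where a cause is named, the cause of these changes was not tested.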

Other observations

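HIF3A, which encodes an alpha subunit that can restrain the others, was picked from the longer hypoxia list after its values were seen. It measured 6.65, 5.86 and 4.23 FPKM in RD Scramble and 2.85, 2.50 and 2.14 FPKM in RD KDM3A-sh2, with no overlap (log2 fold change -0.90 ± 0.16 SE, limma adjusted p = 0.00465). In Rh30 it stood at 0.927 to 1.19 FPKM in Scramble and 1.01 to 2.39 FPKM in KDM3A-sh2 (0.31 ± 0.22, adjusted p = 0.326), and the difference between the lines was 1.21 ± 0.27 (adjusted p = 0.00717).

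LOX, CITED2 and IER3, further hypoxia genes, also rose in RD and fell in Rh30. LOX went from 342 to 365 FPKM up to 657 to 689.5 FPKM in RD, while Rh30 went from 8.02 to 9.32 FPKM down to 4.65 to 6.08 FPKM. CITED2 went from 165 to 178 FPKM up to 209.6 to 228 FPKM in RD, while Rh30 went from 56.8 to 70.5 FPKM down to 39.3 to 43.9 FPKM. IER3 went from 40.8 to 43.6 FPKM up to 47.0 to 51.9 FPKM in RD, while Rh30 went from 28.6 to 29.3 FPKM down to 18.3 to 20.4 FPKM; the table lists IER3 under 6 identifiers, of which 1 was used. The difference between the lines passed the test for these 3 genes, at -1.56 ± 0.11 for LOX, -0.95 ± 0.10 for CITED2 and -0.82 ± 0.08 for IER3. They were chosen after their values were seen, and the longer list was not counted for this pattern. Of all genes tested in both lines, 2.00% rose in RD and fell in Rh30. ZNF395 of the same list went the other way, from 17.3 to 18.2 FPKM down to 12.7 to 14.9 FPKM in RD. In Rh30 ZNF395 went from 14.2 to 15.7 FPKM up to 17.2 to 18.9 FPKM. Tests of its change in Rh30 and of its difference between the lines are not reported here.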
